A study of Mus musculus with 4 samples.

Results

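The transcripts of the endothelin system were examined in mouse embryos at E10.5, in the frontonasal prominence (FNP), from which the nose and snout form. The members were the 7 rows of the deposited gene table named Edn1, Edn2, Edn3, Ednra, Ednrb, Ece1 and Ece2, of 33708 rows on 19 autosomes. Tissue came from 4 embryos of the FVB/NJ strain, all at 29 somites. Of these, 2 were Smchd1+/+ (WT, 1 female and 1 male) and 2 were Smchd1MommeD43/MommeD43 (MD43, 2 males). Both replicate 2 embryos came from 1 mother and each replicate 1 embryo from a mother of its own, per the labels. MommeD43 is a missense allele of Smchd1, a gene for a chromatin protein that silences other genes. It arose by chemical mutagenesis, was backcrossed off the transgene used in the screen, and is present in every cell of the embryo together with linked variants of the mapped interval. Sex and genotype are partly confounded, and their parts cannot be told apart.

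Endothelins are short secreted peptides. They are cut from larger precursors by proprotein convertases such as furin and then by the endothelin converting enzymes ECE1 and ECE2. Their receptors, EDNRA and EDNRB, couple to G proteins and phospholipase C. In the embryonic head, EDN1 from epithelium and arch tissue acts through EDNRA on cranial neural crest and patterns the lower jaw, whereas EDN3 acts through EDNRB on the crest cells that become pigment cells and gut neurons.

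The table gives 1 merged log2 RPKM value per genotype (reads scaled to exon length and library depth), which is the mean of the log2 values of its 2 libraries. No replicate test was therefore possible, and every difference below is a description. Reads were recovered from these values for each genotype as the geometric mean of its 2 libraries, with an implied depth of 22328791 reads per library in MD43 and 16055882 in WT (geometric means, estimated from the scale of the values). The ± given with a log2 value is the smallest standard error (SE) that read counting alone allows, and it leaves out the variation between embryos. The mutated gene, Smchd1, was read 4390 times in MD43 against 3185 times in WT, and its log2 difference (MD43 minus WT) was -0.01 ± 0.02.

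The products of the 2 library counts gave further information on the spread between embryos. Of the products between 1000 and 300000, 99.6% in MD43 and 99.4% in WT were whole to within 0.1, and 1 in each genotype was a prime number. Among the same products plus 1, 18.9% were prime in each genotype. This low share of primes is what products of 2 whole counts give, although a few products fail, such as that of Tmub1 in WT, whose nearest split is 2 and 15817. A whole product can be split into few pairs of whole counts, and pairs up to a ratio of 4 are given below. Which count belongs to which embryo cannot be told. For the genes whose product has a single non-trivial split (109 in MD43 and 134 in WT, products of 10000 to 300000), the larger count was a median of 1.55 times the smaller in MD43 and 1.44 times in WT, and 88.1% of the splits in each genotype were within 2-fold. Library depth enters this ratio, and was itself estimated from such ratios, at 1.52 to 1 in MD43 and 1.40 to 1 in WT. These are the median ratios of genes with a product of 100000 to 300000 and a single pair within 4-fold (459 in MD43 and 526 in WT). The estimate therefore also holds spread between embryos and from counting, and depth alone was not measured. The scaled values and overlaps below rest on it.

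The 2 receptor genes are shown first by the 250 bases before their RefSeq transcription start (GRCm38.p6), because the genotypes differed most at Ednrb and because the recovered MD43 product of Ednra allows no pair of like library counts. All 7 members had an entry. Sequences run 5′ to 3′ on the gene's strand, and capitals mark each CG dinucleotide, the site of DNA methylation in mammals.
Ednra, chr8:77724453-77724702, minus strand: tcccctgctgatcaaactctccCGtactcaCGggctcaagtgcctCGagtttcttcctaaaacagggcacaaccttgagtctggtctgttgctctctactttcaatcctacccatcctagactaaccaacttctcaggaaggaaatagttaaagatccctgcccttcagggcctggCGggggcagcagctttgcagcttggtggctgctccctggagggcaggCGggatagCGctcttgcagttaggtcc
Ednrb, chr14:103843702-103843951, minus strand: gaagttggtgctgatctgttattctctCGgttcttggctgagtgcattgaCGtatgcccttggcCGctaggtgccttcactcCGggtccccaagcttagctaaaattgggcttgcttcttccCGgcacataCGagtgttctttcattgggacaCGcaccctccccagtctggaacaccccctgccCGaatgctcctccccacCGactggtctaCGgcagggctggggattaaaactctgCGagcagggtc
The window of Ednra held 6 CG and that of Ednrb 11, against a median of 6 over the windows of 32851 listed starts, of which 35.6% held at least as many as Ednrb. The RefSeq start of Ednrb lies 701 bp inside the GENCODE gene. No methylation was measured in these samples.

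Of the 7 members, 6 reached 10 reads in a genotype (called tested below) and 1 had none. Ednrb was lower in MD43 by more than 2-fold, and no member was higher by 2-fold. With a pseudocount of 1 RPKM added to both genotypes, the log2 difference of Ednrb was -0.81 and 0 members were 2-fold lower. Of the 6, 4 had a lower and 2 a higher value in MD43, with a median log2 difference of -0.32, against a median of 0.01 over the 15382 tested genes. A lower value in MD43 was found for 48.8% of the tested genes. Of those genes, 2.48% lay 2-fold or more below WT and 1.64% lay 2-fold or more above it. At 1.5-fold the count of members stayed at 1 lower and 0 higher, beside 6.44% and 4.24% of the genes. Under a stricter minimum of 50 reads, the share of genes at 2-fold was 0.946% lower and 0.31% higher, and over all rows it was 4.41% and 1.93%.

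**Figure D1:**
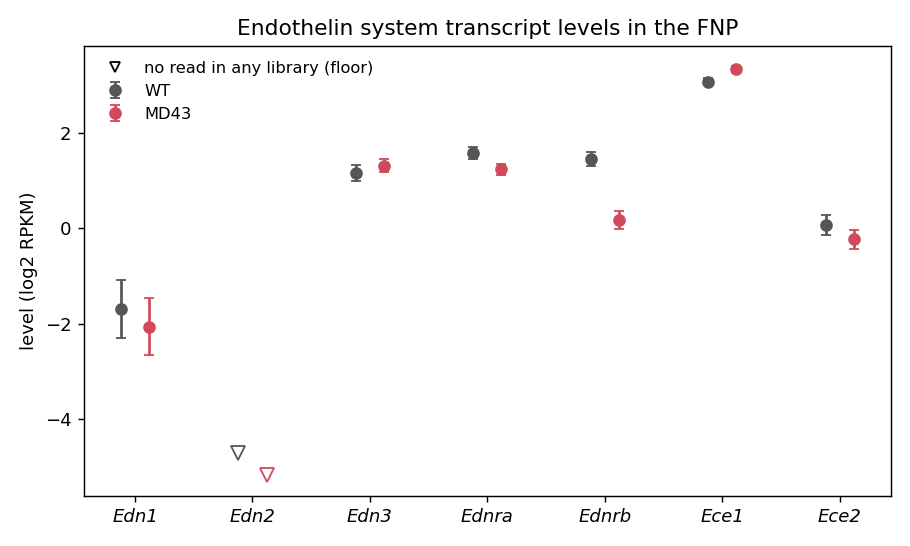
Level of each member in log2 RPKM (y axis) in WT (grey) and MD43 (red). Circles are the merged genotype values with their 95% counting intervals, and open triangles mark Edn2, which had no read in any library and is drawn at the floor of each genotype. Ece1 is highest in both genotypes, and Ednrb shows the widest gap between them.

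Of the 2 receptor genes, Ednrb was 2-fold or more lower and Ednra was not. Ednrb (ENSMUSG00000022122, GRCm38 chr14:103814625-103844402, minus strand, protein coding), the receptor of crest-derived pigment and gut neuron precursors, had a level of 0.17 (MD43) against 1.44 (WT) on the log2 RPKM scale, with 107 against 186 reads. The log2 difference was -1.27 ± 0.12, or 2.41-fold lower in MD43, with a 95% counting interval of -1.51 to -1.03. Of the tested genes, 1.38% had a difference as low or lower. In tissue of mixed cells, fewer cells that express Ednrb and less RNA per cell cannot be told apart.

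For Ednrb, how far the split products of the genotypes lay apart depended on the pairs allowed in WT. In MD43 the product of 11508 allows 84 and 137 reads alone within 4-fold. In WT the product of 34650 allows 8 pairs within 4-fold, of which the 4 within 2-fold have a smaller count of 150 to 175 and a larger count of 198 to 231. Scaled to the estimated depth of each library (RPM, reads scaled to depth but not to length), with the larger count in either library, the MD43 values lay between 3.05 and 7.56 RPM and the WT values of the 4 pairs between 7.90 and 17.0. These ranges lay close, at 7.56 against 7.90 RPM, and rest on depths that were not measured. With WT pairs up to 4-fold, the WT values ran from 5.22 to 25.8 RPM, which overlaps the MD43 range. The pairs are ways to place counts behind the same 2 merged values, which already differ 2.41-fold, and are not separate observations. The limit of 2-fold also keeps the WT pairs close together. How often other genes show such a gap was not counted. A gap between 2 and 2 libraries is a description here and not a test.

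Ednra (ENSMUSG00000031616, chr8:77663031-77724464, minus strand, protein coding), the receptor through which EDN1 acts on cranial crest, had a level of 1.23 (MD43) against 1.57 (WT) on the log2 RPKM scale, with 287 against 261 reads. The log2 difference was -0.34 ± 0.09, which exceeds the counting error. The recovered library counts were less even. The MD43 product of 82232 has no split within 3-fold, and the nearest pair is 152 and 541 reads. The WT product of 68139 allows 201 and 339 reads alone within 4-fold. Of 3894 MD43 products between 10000 and 300000, 16 (0.411%) lacked a split within 3-fold, and Ednra was 1 of them. This is not the share of genes with uneven libraries, since the product of such a gene can allow another split within 3-fold. Of the 109 MD43 products with a single non-trivial split, 1 was beyond 3.5-fold. A product that was recovered wrongly could also lack such a split, as may that of Scn3a (10253, a prime number) among the same 16. A wrong product can also allow a split that is not the true pair. In 3 of the 4 ways to place these counts in the libraries, both WT values lay between the 2 MD43 values, and in all 4 the genotypes overlapped. If this product is exact, the merged MD43 value of Ednra is the mean of 2 unlike libraries. Ednra overlaps the non-coding gene 4933431K23Rik on the opposite strand, which had 9.75 reads in MD43 and 11.2 in WT.

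**Figure D2:**
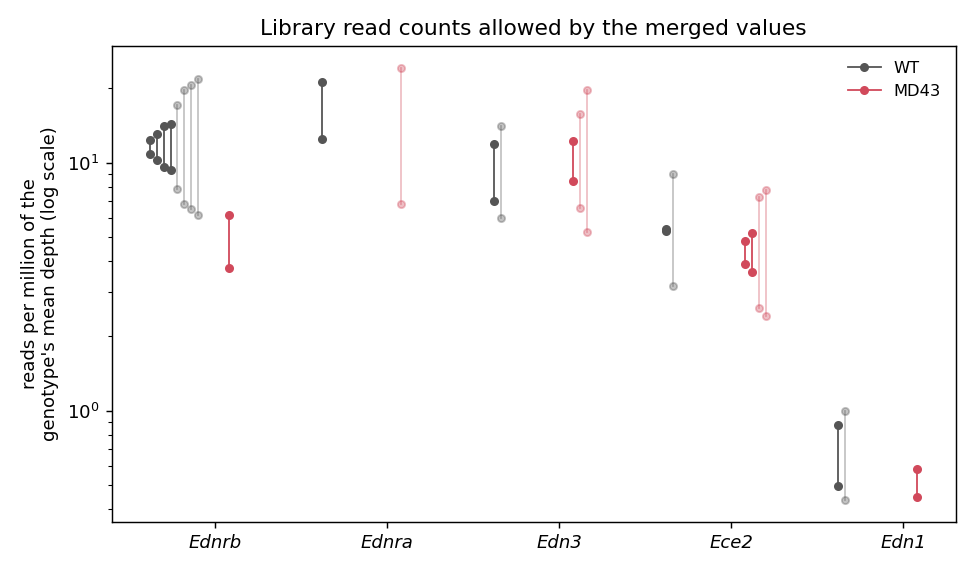
Library read counts that the merged values allow, scaled to the genotype's mean depth (y axis, log scale), for the 5 members whose product could be split. Each line joins the 2 counts of 1 possible pair in WT (grey) or MD43 (red), with pairs beyond 2-fold drawn pale. The single MD43 pair of Ednrb (84 and 137 reads) lies low, and the MD43 pair of Ednra (152 and 541 reads) spans its WT pair.

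The balance of the 2 receptors differed between the genotypes. Ednra stood above Ednrb by 1.06 ± 0.12 log2 in MD43 and by 0.13 ± 0.10 in WT, so that the receptors were within their counting error of each other in WT and 2.08-fold apart in MD43. The change in balance was 0.93 ± 0.15. The levels within a genotype depend on the exon length used. With the longest annotated transcript in place of all exons, Ednra stood above Ednrb by 1.60 in MD43 and by 0.67 in WT, whereas the change in balance does not depend on length. Since it includes the wide MD43 pair of Ednra, its spread between embryos is not known.

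Among the ligands, Edn3 was the most abundant. Edn3 (ENSMUSG00000027524, chr2:174760619-174784042, plus strand, protein coding), the ligand of EDNRB in the crest, had a level of 1.31 (MD43) against 1.16 (WT) on the log2 RPKM scale, with 227 against 147 reads. Its log2 difference of 0.15 ± 0.11 did not exceed the counting error. The MD43 reads split as 189 and 273 and the WT reads as 113 and 192 within 2-fold, and the scaled values overlapped in all 4 combinations. Thus the ligand and its receptor had differences of opposite sign, and the ligand's was within its counting error.

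Edn1 (ENSMUSG00000021367, chr13:42301476-42307990, plus strand, protein coding), the ligand of EDNRA in the arches, had few reads, 11.4 in MD43 and 10.6 in WT. Its levels were -2.07 and -1.70 log2 RPKM, at the 6.29th percentile of the tested genes in MD43 and the 7.98th in WT. Within 4-fold, the MD43 product of 130 allows 10 and 13 reads, and the WT product of 112 allows 8 and 14 or 7 and 16, although products below 1000 were not checked for being whole. The log2 difference of -0.37 ± 0.44 had a 95% counting interval of -1.22 to 0.49, so that a 2-fold decrease cannot be told from no difference at this depth. Edn3 stood above Edn1 by 3.37 ± 0.31 log2 in MD43 and by 2.86 ± 0.32 in WT. Edn2 (ENSMUSG00000028635, chr4:120161206-120167360, plus strand, protein coding), the third ligand, had no read in any of the 4 libraries, which allows up to 3 reads per library, or 0.0919 RPKM in MD43 and 0.128 RPKM in WT. Its listed values differ through depth alone, and no fold is given.

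The converting enzymes differed in abundance and in the direction of their difference. Ece1 (ENSMUSG00000057530, chr4:137862237-137965229, plus strand, protein coding), the main enzyme that releases active EDN1, was the highest member in both genotypes, with log2 RPKM levels of 3.33 (MD43) and 3.07 (WT) and 1193 against 714 reads. The log2 difference was 0.26 ± 0.05, and 13.6% of the tested genes had a difference as high or higher. Its product is too large to be split. Ece2 (ENSMUSG00000022842, chr16:20629828-20646485, plus strand, protein coding), a related enzyme best known from neural tissue, had log2 RPKM levels of -0.24 (MD43) and 0.07 (WT), with 96.9 against 86.0 reads. Its log2 difference was -0.30 ± 0.15, with a counting interval of -0.60 to -0.01, and 6 of 8 combinations of library pairs within 2-fold overlapped. Ece2 shares its region and strand with the protein-coding gene Gm49333 (316 reads in MD43 and 203 in WT), so the values of Ece2 are uncertain. The level of Ece1 was 11.9-fold that of Ece2 in MD43 and 8.01-fold in WT, a change in balance of 0.57 ± 0.16 on the log2 scale.

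**Figure D3:**
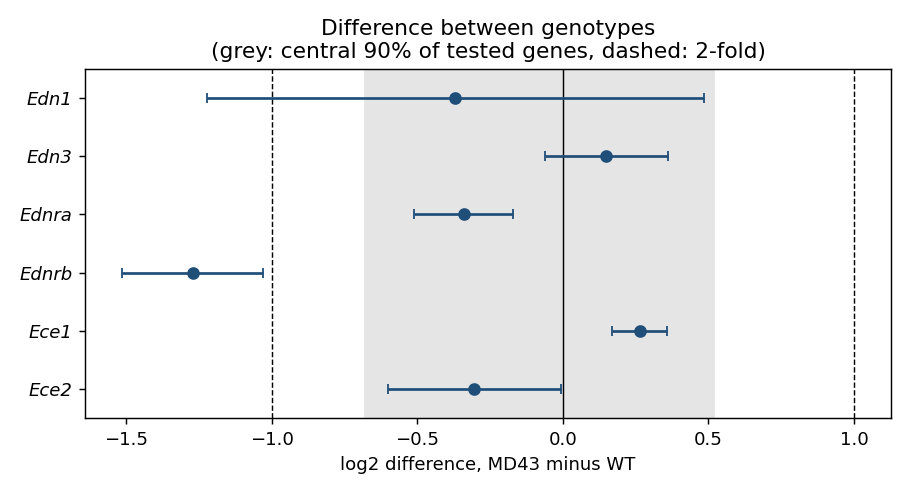
Log2 difference between genotypes (x axis, MD43 minus WT) of the 6 members with reads, with 95% counting intervals. Grey marks the central 90% of the tested genes and dashed lines 2-fold. Ednrb at -1.27 alone lies beyond the grey band, and Edn1 has the widest interval.

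Ordered by level, the members ran Ece1, Edn3, Ednra, Ednrb, Ece2 and Edn1 in MD43, and Ece1, Ednra, Ednrb, Edn3, Ece2 and Edn1 in WT. Neighbours in this order were apart by more than the 95% counting interval of their difference, other than Edn3 and Ednra in MD43 (0.08 ± 0.09) and Ednra and Ednrb in WT (0.13 ± 0.10). Ednrb thus moved from the third place in WT to the fourth in MD43. With the longest transcript as the length, Edn3 and Ednra changed places in MD43, as did Ednrb and Ece2 in MD43 and Ednrb and Edn3 in WT.

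None of the measured genes near Ednrb was 2-fold lower. Within 500 kb, 3 genes had at least 10 reads, and their log2 differences were 0.06 ± 0.03 for Mycbp2, 0.16 ± 0.08 for Slain1 and 0.89 ± 0.28 for Slain1os, a non-coding partner of Slain1. In the same window around the other members, 1 of 13 genes near Ece1 was 2-fold lower (Camk2n1, -1.09 ± 0.16) and 1 of 21 near Ece2 was 2-fold higher (Gm16618, 1.10 ± 0.42), both named after their values were seen, and 0 were at 2-fold near Edn1, Edn2, Edn3 and Ednra. Gm16618, with 24.1 reads in MD43 and 8.06 in WT, passed the filter of 10 reads through MD43 alone, where it was higher. Over all tested genes, 2.48% were 2-fold or more lower and 1.64% were 2-fold or more higher.

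The genes that make, clear and relay the peptides were then described. Of 4 proprotein convertases, 0 were at 2-fold, with a median log2 difference of 0.23 and values from -0.05 ± 0.09 for Pcsk5 to 0.33 ± 0.09 for Pcsk6. Of the 4 relatives of ECE1 in the neprilysin family, 3 had enough reads. Kel, a surface protein of red blood cells, was 2.30-fold higher in MD43 (68.2 against 21.3 reads), and Mmel1 was at -0.29 ± 0.29. The red blood cell markers were also higher in MD43, with a higher value for all 5 measured members and a difference of 1.04 ± 0.01 for Hbb-bh1 (2.06-fold), and their part in the value of Kel was not tested. Of 7 measured G protein and phospholipase C genes that relay receptor signals, 0 were at 2-fold, and the values ran from -0.26 ± 0.14 for Plcb1 to 0.16 ± 0.03 for Gna11, with a median of -0.01.

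Transcription factors that depend on EDN1 and EDNRA in the pharyngeal arches did not move together. Of 10 listed, 6 had at least 10 reads, 4 of them with a higher and 2 with a lower value in MD43 (median log2 difference 0.38). Gsc, a homeobox factor of the jaw, was 2.50-fold higher, at 1.32 ± 0.31 from 47.9 and 13.8 reads. Barx1, a factor of maxillary and jaw mesenchyme, was 2.46-fold lower, at -1.30 ± 0.30 from 18.0 and 31.9 reads. The distal-less genes had values of 0.49 ± 0.09 (Dlx3), 0.52 ± 0.10 (Dlx5) and 0.27 ± 0.11 (Dlx6). Hand1 and Hand2, which mark the distal arch, had at most 2.00 reads in a genotype. The FNP lies outside the arches.

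Markers of glia, pigment and autonomic cells, the lineages that use EDNRB, stood lower in MD43 in part. Of 10 listed genes in the table, 7 had at least 10 reads, and 3 of these were 2-fold lower and 0 were 2-fold higher (median log2 difference -0.96, with 4 lower and 3 higher values), beside 2.48% and 1.64% of the tested genes. Under a minimum of 50 reads the median was -0.37 and Mitf was the 1 gene left at 2-fold lower. The 3 genes at 2-fold were Pmel (-1.36 ± 0.26, from 23.3 and 43.2 reads) and Mitf (-1.01 ± 0.16, from 67.7 and 97.7 reads), both pigment cell genes, and Sox10 (-1.27 ± 0.51, from 6.24 and 10.8 reads), a factor of crest and glia. Sox10 passed the filter of 10 reads through WT alone, where it was higher. The count of 3 and the median of -0.96 include Sox10. Dct, a pigment enzyme, was at -0.96 ± 0.17. Pigment genes are also active in the pigment layer of the eye. The WT product of Pmel, 1866, has no split within 4-fold, and the nearest pair is 6 and 311 reads. Either this product was recovered wrongly or 1 library carries most of the WT value, and which was not tested. The MD43 product of Sox10, 39, likewise has no split within 4-fold, with 3 and 13 reads as the nearest pair. Products below 1000 were not checked for being whole. Erbb3, a glial receptor gene that epithelium also expresses, was higher at 0.92 ± 0.08, and Kit and Ret stood at 0.22 ± 0.05 and 0.02 ± 0.30. Foxd3 had at most 1 read in a library. The part of these cells in the value of Ednrb was not tested.

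Other cell types were checked because the members are not limited to crest. Of 9 vessel endothelium markers, 0 were at 2-fold, with a median of -0.11 and values from -0.33 ± 0.08 (Kdr) to 0.23 ± 0.13 (Tie1), and their summed RPKM was 23.9 in MD43 and 26.4 in WT. All 8 surface epithelium markers had a higher value in MD43, from 0.23 ± 0.06 (Trp63) to 0.87 ± 0.05 (Cldn6), with a summed RPKM of 188 against 120. Ece1 moved in the same direction as this list, and the part of epithelium in its value was not tested. Facial mesenchyme markers, which the labelled tissue should express, were all detected (9 of 9), with a median of -0.17 and the lowest value at Twist1 (-0.39 ± 0.05). Their summed RPKM was 154 in MD43 and 155 in WT. Of 8 neural markers, 0 were at 2-fold, with a median of -0.09 and the lowest value at Fabp7 (-0.89 ± 0.05). The neural markers had a higher summed RPKM than the mesenchyme markers, 319 in MD43 and 348 in WT. The part of neural tissue in the values of the members was not tested. Of 5 mural cell markers, 2 had enough reads, Pdgfrb at -0.17 ± 0.07 and Cspg4 at -0.35 ± 0.32.

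**Figure D4:**
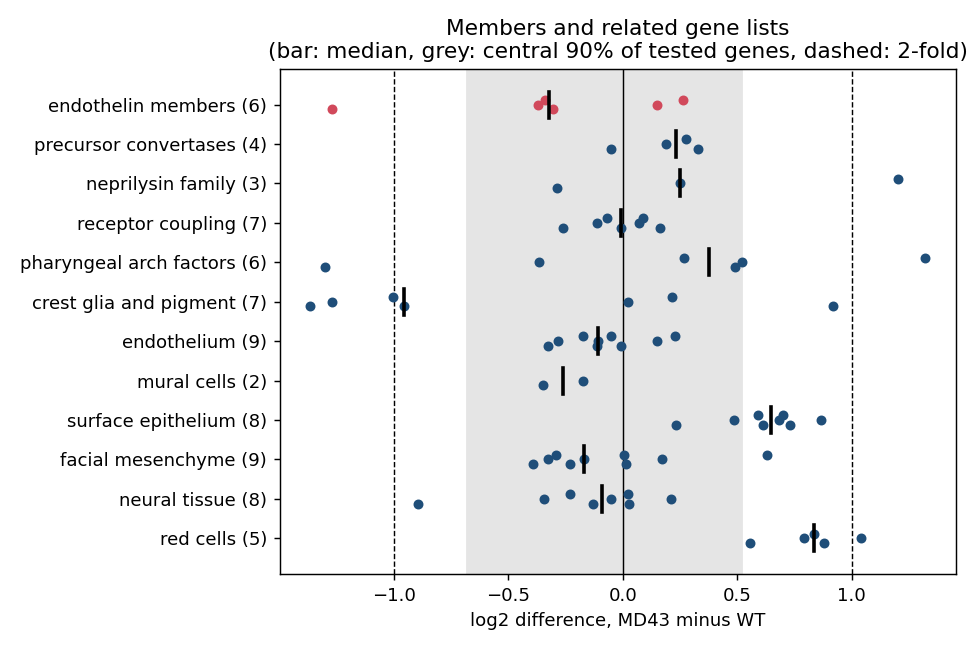
Log2 difference between genotypes (x axis, MD43 minus WT) of the 6 members (red) and of the genes of 11 lists (blue), with the number of genes with at least 10 reads in brackets, the median of each list as a bar, the central 90% of tested genes in grey and 2-fold as dashed lines. All surface epithelium and red cell genes lie above 0, the endothelium lies around 0, and 3 of 7 crest glia and pigment genes lie at or beyond 2-fold lower. Among these, Sox10 reached 10 reads in WT alone.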

How the data were processed

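FNPs of 4 embryos were sequenced from poly(A) RNA as stranded libraries of 100 ng of total RNA, per the labels. The authors trimmed reads with Trim Galore 0.4.4, mapped them with HISAT2 2.0.5 to GRCm38.p6 and quantified them in SeqMonk. The deposited values are log2 RPKM, 1 column per genotype. The table also holds the authors' fold change, mean and FDR columns, which were not used.

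Rows were joined to GENCODE M21 by symbol and position (33101 of 33708). In the deposited values a library without reads counts as 0.9 reads, and genes without reads therefore gave the scale from RPKM to reads. The square of a geometric mean of reads is the product of 2 library counts, which was factorised with sympy 1.14.0. The recovery of products, mean depth and log2 differences was tested on data simulated under the same assumptions. Whether the splits give the true library counts was not tested. Pairs, their ratio limits and the depth estimate were chosen after the data were seen. Merged values allow no significance test, no replicate block and no library left out.

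Named genes were all members, the extremes of each list, genes at 2-fold with 10 reads and Smchd1. Further list genes were named after their values were seen. The members and lists were chosen with earlier results of these data known. Alas2 and Gata1 were not analysed here. Some listed genes are not reported by name here. Promoter sequences are from RefSeq. Alternatives were pseudocounts of 0.1 and 1 RPKM, centring, filters, a 1.5-fold threshold and transcript length.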

Additional observations from a re-analysis of the deposited data

How the results depend on the processing

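Of 70 alternatives, 63 kept a gene or balance within its 95% counting interval, a list median within the interval of its genes' median counting SE, or a count within 1.5 times. The other 7 moved it further, and 0 of the 70 turned its direction. With a pseudocount of 1 RPKM the log2 difference of Ednrb was -0.81 and the count of members at least 2-fold lower was 0, as such a pseudocount is close to the level of Ednrb in MD43. With the longest transcript as the length, Ednra stood above Ednrb by 1.60 in MD43 and 0.67 in WT, and Ece1 above Ece2 by 3.14 in MD43 and 2.57 in WT, through the length alone. With at least 50 reads the median of the crest glia and pigment list was -0.37 and that of the neprilysin family 0.73 (against 0.25 at 10 reads), through fewer genes. Centring shifted values by 0.0055 or 0.013. No paired analysis was possible because each genotype is given as 1 merged column, and for the same reason no library could be left out. Depth limits Edn1 and Edn2, where a 2-fold difference lies within the counting interval or below the limit of detection.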

Other observations

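Ednra was not alone in a recovered MD43 product without a split into like library counts. Among the 16 genes with an MD43 product between 10000 and 300000 and no split within 3-fold, the nearest pairs were 133 and 503 reads for Col9a1, 73 and 365 for Col15a1 and 179 and 619 for Col23a1, which are collagen genes. They were 65 and 235 for Nrp1, a semaphorin and VEGF receptor gene, and 106 and 331 for Neurog2, a neuronal factor. The red cell genes Hemgn and Ermap had 103 and 415 reads and 72 and 347 reads. The same 16 include Scn3a, whose product of 10253 is a prime number and was therefore recovered wrongly or has 1 read in a library, and Cep126, with 73 and 787. A wide pair can thus also come from a wrongly recovered product, and which pairs are exact was not tested. These genes were named after their values were seen. Whether the larger counts come from the same embryo cannot be told. In WT, 22 of 4507 products (0.488%) lacked a split within 3-fold. They included those of Erbb3 (131 and 433 reads), Erbb4 (148 and 589) and Tgfb2 (77 and 251), and no endothelin member.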
